A study of Mus musculus with 6 samples.

Results

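Extracellular matrix is the protein mesh that cells secrete around themselves, and 46 genes of it were followed here in LSK cells, the lineage-negative, Sca-1-positive, c-Kit-positive fraction of bone marrow in which haematopoietic stem cells and early progenitors lie. The genes were chosen by symbol, as a list of matrix and collagen-processing genes out of the 24063 symbols counted. They comprised 27 secreted matrix proteins, 15 proteins that fold, modify or crosslink collagen, and 4 matrix proteases or protease inhibitors. RNA was compared between 3 Asxl2-/- and 3 control libraries. All 6 came from C57BL/6 mice that carried the Mx1-cre transgene and had received pIpC, a synthetic double-stranded RNA. The Asxl2-/- mice had exon 11 of Asxl2, a chromatin regulator, flanked by loxP sites, and the controls were labelled wild type for Asxl2. The Mx1 promoter answers to interferon and is active well beyond LSK cells, so deletion in this model is not limited to the sorted population. The published results of the study describe these LSK cells as also positive for CD45.2, a surface protein of blood cells. The labels give no age and do not say whether a library pooled several mice.

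Collagen chains are hydroxylated on proline and lysine in the endoplasmic reticulum, joined into a triple helix with the help of chaperones, secreted as procollagen, trimmed, and crosslinked outside the cell by lysyl oxidases. Fibrillar collagens (types I, III and V) form the fibres of bone and connective tissue. Collagens IV and XVIII, laminins, nidogens and perlecan build basement membranes. In marrow, osteoblasts, reticular stroma, endothelium and megakaryocytes are known sources of matrix, and blood progenitors adhere to it through integrins.

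In the Asxl2-/- libraries, 2 collagen chaperones (Fkbp10 and Serpinh1), the elastic fibre protein Efemp2, the protease inhibitor Timp2, the basement membrane collagen Col18a1 and the laminin chain Lamb2 were raised, and the fibrillar collagen Col5a1 was lowered. Type I collagen, together with Sparc the most abundant secreted matrix RNA of the list by mean level per kilobase, did not pass the test. Calls are those of the quasi-likelihood test of edgeR with an adjusted p under 0.05 over all 14145 genes that passed a filter on low counts. Of the 46 members, 43 passed that filter, and 6 of them were called raised and 1 lowered. Over all genes tested, 2.04% were called raised and 0.304% lowered, 2.34% in all. DESeq2 with the same design called 15 members raised and 1 lowered, beside 8.3% and 7.98% of all genes, 16.3% in all. In bulk RNA, fewer or more cells of a type and less or more RNA per cell cannot be told apart.

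Upstream sequence is printed for Serpinh1, Efemp2 and Col18a1. The first pair had the highest fold changes among called members with an entry in the promoter table, and Col18a1 has a pair of separate 5′ ends, on which the exon counts bear. Each line holds the 250 bases before a transcript start, 5′ to 3′ on the strand of the gene, from RefSeq on GRCm38.p6 (the mm10 build of the counts). Capitals mark 4 motifs on either strand. They are the GC box GGGCGG, the CAAT box CCAAT, the core TGTGGT that RUNX proteins bind, and the TATA box TATAAA.
Serpinh1, chr7:99353240-99353489, minus strand: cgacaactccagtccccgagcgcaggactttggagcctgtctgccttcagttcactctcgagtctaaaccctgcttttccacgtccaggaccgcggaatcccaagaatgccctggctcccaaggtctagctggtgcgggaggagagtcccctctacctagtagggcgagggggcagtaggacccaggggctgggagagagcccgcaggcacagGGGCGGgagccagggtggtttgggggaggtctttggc
Efemp2, chr19:5474440-5474689, plus strand: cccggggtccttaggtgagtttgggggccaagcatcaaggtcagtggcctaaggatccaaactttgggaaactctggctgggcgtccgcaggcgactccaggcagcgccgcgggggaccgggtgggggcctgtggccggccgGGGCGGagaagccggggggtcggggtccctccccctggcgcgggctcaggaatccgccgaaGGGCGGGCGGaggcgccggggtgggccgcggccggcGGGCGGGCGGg
Col18a1, upstream start, chr10:77166531-77166780, minus strand: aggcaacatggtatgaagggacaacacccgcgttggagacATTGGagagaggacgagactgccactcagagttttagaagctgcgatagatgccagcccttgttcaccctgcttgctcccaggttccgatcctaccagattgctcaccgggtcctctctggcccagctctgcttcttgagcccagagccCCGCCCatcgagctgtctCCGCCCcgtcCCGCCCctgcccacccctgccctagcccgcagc
Col18a1, downstream start, chr10:77113706-77113955, minus strand: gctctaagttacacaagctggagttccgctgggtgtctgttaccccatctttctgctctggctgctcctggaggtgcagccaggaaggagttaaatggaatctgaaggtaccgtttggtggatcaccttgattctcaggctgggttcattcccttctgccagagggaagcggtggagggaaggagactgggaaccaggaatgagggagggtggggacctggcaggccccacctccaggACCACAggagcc
The GC box stood 5 times upstream of Efemp2, counting overlapping matches, once upstream of Serpinh1, 3 times upstream of the upstream Col18a1 start and not upstream of the downstream one. It was present in 67.6% of the 37 upstream windows found for 31 members, and in 32.7% of all 32851 windows of that length. The CAAT box was present in 29.7% of member windows and 33.8% of all, the RUNX core in 10.8% and 14%, and the TATA box in 10.8% and 12.4%. A match describes the letters and is not a site of binding.

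Depth and labels bear on every value reported. Counts were deposited in 2 kinds of file. Asxl2-/- replicates 1 and 3 and control replicate 2 have 1 count per transcript (gene-count files, 25528740 to 29136231 counts on the transcripts used), and Asxl2-/- replicate 2 and control replicates 1 and 3 have 1 count per exon (exon-count files, 53151198 to 55036924), so that 1 read over a splice junction may enter several times. Raw counts are therefore set side by side only within a kind of file, and the fit carries the kind of file as a covariate. Normalised levels are given as CPM (counts per 1000000, on library totals scaled by TMM), n = 3 libraries a group, and 3 counts, the floor used here, equal 0.0564 to 0.106 CPM. The deleted exon 11 of Asxl2 (chr12, 3496225 to 3496936) held 0.583% of that gene's exon counts in Asxl2-/- replicate 2 (95% Wilson interval 0.404 to 0.841), against 10.3% (9.45 to 11.2) and 12% (11 to 13) in control replicates 1 and 3. Counts of 4 Y-linked genes ranged from 0 to 2 in the Asxl2-/- libraries and from 1026 to 4807 in the controls, and Xist from 49540 to 66689 against 590 to 3194. Sex and genotype therefore cannot be told apart for any difference reported here, although 0 of the 46 members lie on X or Y.

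**Figure D1:**
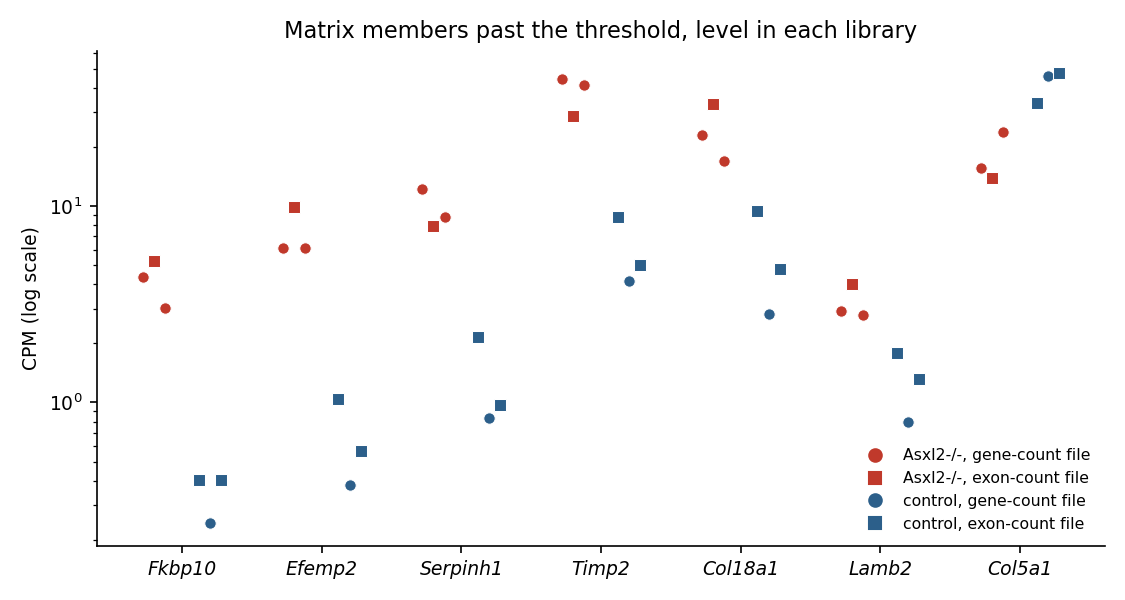
Level of each of the 7 members past the threshold in each library, as CPM on a log axis, with red for Asxl2-/-, blue for control, circles for gene-count files and squares for exon-count files. For Fkbp10, Efemp2, Serpinh1, Timp2, Col18a1 and Lamb2 the 3 Asxl2-/- points lie above the 3 control points, and for Col5a1 below them.

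Of the 4 chaperones tested, 2 were raised, beside 2.04% of all genes tested, and 2 were not called. Fkbp10 encodes FKBP65, a prolyl isomerase that helps procollagen and tropoelastin fold. Its counts in the gene-count files were 122 and 86 in Asxl2-/- replicates 1 and 3 against 7 in control replicate 2, and in the exon-count files 280 in Asxl2-/- replicate 2 against 21 and 19 in control replicates 1 and 3. The lowest Asxl2-/- level was 3.03 CPM and the highest control level 0.403 CPM, so the groups did not overlap, and the log2 fold change was 3.78 (SE 0.291, adjusted p = 0.0119 by edgeR). Serpinh1 encodes HSP47, the chaperone that binds the folded triple helix. Counts were 344 and 249 against 24 in the gene-count files and, among exon-count files, 423 against 112 and 46. Levels of 7.95 to 12.2 CPM in Asxl2-/- libraries stood clear of 0.834 to 2.15 CPM in controls, a log2 fold change of 2.93 (SE 0.463, adjusted p = 0.0401 by edgeR). Crtap and Ppib (cyclophilin B), which sit with prolyl 3-hydroxylase 1 in a complex that modifies collagen chains, were not called. Crtap ranged from 30.2 to 47.5 CPM in the Asxl2-/- libraries and from 34.9 to 43.7 CPM in controls (log2 fold change 0.09, SE 0.135). Ppib, the most abundant of all members per kilobase of transcript, had counts of 6626 and 6216 against 8961 in the gene-count files and, among exon-count files, 16371 against 15208 and 16507 (log2 fold change -0.26, SE 0.127, adjusted p = 0.242 by edgeR). Exons of Ppib share 54.2% of their bases with Snx22, and in unstranded counts the reads of the pair cannot be told apart.

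Where along Fkbp10 the counts lay differed between the exon-count libraries. Exons 1 to 6 held 107 counts in Asxl2-/- replicate 2, but 3 in control replicate 1 and 1 in control replicate 3, that is 2.01 CPM against 0.0576 and 0.0211 CPM, the control values being at or under the floor. Exons 7 to 10, which lie within the span of the neighbouring gene Nt5c3b, held 173 counts against 18 and 18. Exon 7 lies entirely within an exon of Nt5c3b and held 38, 5 and 4. Nt5c3b itself had a log2 fold change of 0.38 (SE 0.13, adjusted p = 0.132 by edgeR). Most of the few control counts of Fkbp10 thus lay inside the span of a gene that was at 23.7 to 37.9 CPM in controls.

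The 3 prolyl 4-hydroxylase subunits, which hydroxylate the prolines that hold the helix together, gave 0 calls by edgeR, and 0 had an unadjusted p under 0.05 or passed with DESeq2 or limma-voom. P4hb, the beta subunit that is also protein disulphide isomerase, was read 17064 and 14677 times against 28442 in the gene-count files and, among exon-count files, 42478 times against 35009 and 39935 (log2 fold change -0.37, SE 0.213). The catalytic subunits had log2 fold changes of -0.21 (P4ha1) and 0.29 (P4ha2), and all 3 subunits had opposite signs in the 2 kinds of file. Among the lysyl hydroxylases, which prepare crosslinks and sugar attachment, Plod1 (log2 fold change 0.77, SE 0.222) and Plod2 (0.83, SE 0.241) did not overlap between groups within either kind of file but missed the threshold, with edgeR adjusted p of 0.103 and 0.104. Plod3 had counts of 2033 and 1593 against 3576 in the gene-count files and, among exon-count files, 6457 against 4278 and 5662, so its direction turned with the kind of file (log2 fold change -0.34, SE 0.292). Pcolce, which speeds removal of the procollagen C-propeptide, was at 1.71 to 3.62 CPM against 0.991 to 1.35 CPM (log2 fold change 0.88, adjusted p = 0.15 by edgeR). Of the 13 collagen-processing members tested, 2 were raised and 0 lowered by edgeR, beside 2.04% and 0.304% of all genes tested. Of the 13, 5 were higher and 1 lower at an unadjusted p under 0.05 by edgeR, beside 2126 and 1786 of the 14145 genes tested. DESeq2 called 4 raised and limma-voom 2, beside 8.3% and 2.64% of all genes, and 0 were lowered by either. The 13 had a median log2 fold change of 0.29, beside 0.00 over all genes tested.

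Lysyl oxidases start the crosslinks of collagen and elastin. Lox was at 0.413 to 2.24 CPM in Asxl2-/- libraries and 0.253 to 0.278 CPM in controls (log2 fold change 1.53, SE 0.646, adjusted p = 0.188 by edgeR). Loxl1 and Loxl2 did not pass the filter. Loxl1 had 14 and 7 counts against 0 and 7 against 4 and 1, and Loxl2 had 3 to 9 counts in every library. Loxl3 was the most abundant of the family, at 34.0 to 59.7 CPM over the 6 libraries, with a log2 fold change of -0.40 (SE 0.134, adjusted p = 0.132 by edgeR). Most of its counts were in the last exon, which holds 43.6% of the transcript's bases and 90.1%, 93.9% and 96.7% of the counts in Asxl2-/- replicate 2 and control replicates 1 and 3, and 534 of the 1765 bases of that exon also belong to Htra2. In the 13 exons before it, the level ran the other way, 3.36 CPM in Asxl2-/- replicate 2 against 2.30 and 1.54 CPM.

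Among secreted proteins of elastic fibres, Efemp2 (fibulin-4, needed for elastic fibre assembly and for the action of lysyl oxidase) had the highest fold change. It was counted 172 and 174 times against 11 in the gene-count files and, among exon-count files, 525 times against 54 and 27. Levels were 6.10 to 9.86 CPM against 0.382 to 1.04 CPM, without overlap, and the log2 fold change was 3.76 (SE 0.306, adjusted p = 0.0119 by edgeR). All 10 exons of the transcript had counts in Asxl2-/- replicate 2, and the last exon, with 16.4% of the bases, held 9.14% of them. Fbln1 (fibulin-1) was at 3.74 to 5.54 CPM against 0.278 to 1.48 CPM in controls but missed the threshold (log2 fold change 3.13, SE 0.628, adjusted p = 0.0613 by edgeR). Fbln2 had 1 count in 6 libraries and was not tested. Fn1 (fibronectin, a ligand of integrins) was at 4.37 to 11.3 CPM against 2.53 to 4.57 CPM (log2 fold change 0.70, SE 0.451, adjusted p = 0.35 by edgeR). Fbn1 (fibrillin-1, the core of microfibrils) had the most negative log2 fold change of the members, -1.54 (SE 0.545), with an edgeR adjusted p of 0.143. Its counts were 111 and 349 against 818 in the gene-count files and, among exon-count files, 455 against 565 and 1451, lower in each Asxl2-/- library than in the controls of the same kind of file. Exons 1 to 14 of 66 held 9, 13 and 18 of those counts in Asxl2-/- replicate 2 and control replicates 1 and 3, 1.98%, 2.30% and 1.24% of the counts for 20.3% of the bases.

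All 3 basement membrane collagens were higher in Asxl2-/- libraries without overlap within either kind of file, as were 25.4% of all genes tested. Of the 3, 1 was called raised, beside 2.04% of all genes tested. Col18a1 (collagen XVIII, the source of endostatin) had 648 and 479 counts against 81 in the gene-count files and, among exon-count files, 1761 against 492 and 227. The log2 fold change was 2.49 (SE 0.328, adjusted p = 0.0279 by edgeR). Col4a1 and Col4a2, the paired chains that make the collagen IV net and are transcribed from starts 2 bases apart on opposite strands, had close values of 1.98 (SE 0.518, adjusted p = 0.0892 by edgeR) and 2.14 (SE 0.515, adjusted p = 0.0778 by edgeR), neither past the threshold. Their levels were 35.4 to 52.1 CPM in the Asxl2-/- libraries and 5.07 to 29.2 CPM in the controls. Of the laminins, nidogens and perlecan, Lamb2 (laminin beta 2) was raised. It had 82 and 79 counts against 23 in the gene-count files and, among exon-count files, 213 against 93 and 62 (log2 fold change 1.58, SE 0.273, adjusted p = 0.049 by edgeR). Hspg2 (perlecan), Nid1 (nidogen-1, the linker of laminin and collagen IV) and Lamc1 (laminin gamma 1) had log2 fold changes of 1.66, 1.37 and 0.82 with edgeR adjusted p between 0.0683 and 0.0892. Lamb1 (0.61) and Nid2 (-0.07) had unadjusted p of 0.351 and 0.81.

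The chosen Col18a1 transcript starts at the downstream of its 5′ ends. Its exon 1 held 0, 2 and 0 counts in Asxl2-/- replicate 2 and control replicates 1 and 3, against 1761, 490 and 227 in exons 2 to 41. For 0 counts the floor of 3 allows up to 0.0564 CPM in Asxl2-/- replicate 2. In the transcript with the upstream start, exon 1 held 6, 10 and 6 counts and exon 2 held 11, 12 and 7, while the first exon that both transcripts share (chr10, 77095991 to 77096535) held 105, 41 and 19. The higher count of Asxl2-/- replicate 2 thus lay in exons downstream of both annotated starts, and the share of reads from either start could not be given at this depth.

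Of the 5 fibrillar collagens, 1 was called, and it was lowered, beside 0.304% of all genes tested. Col5a1, the alpha 1 chain of collagen V that starts type I fibrils and sets their width, was the only lowered member. It was counted 440 and 678 times against 1316 in the gene-count files and, among exon-count files, 739 times against 1736 and 2249. Levels of 13.9 to 23.9 CPM in the Asxl2-/- libraries lay below the 33.3 to 47.4 CPM of the controls, a log2 fold change of -1.37 (SE 0.231, adjusted p = 0.0451 by edgeR). Over the whole transcript its partner chain Col5a2 had far fewer counts, at 2.37 to 7.20 CPM against 0.521 to 3.34 CPM. Col5a2 had a log2 fold change of 1.37 with an edgeR adjusted p of 0.385. The last 2 of the 66 exons of Col5a1 hold 34.2% of its bases and held 86.3%, 82.2% and 88.7% of its counts in Asxl2-/- replicate 2 and control replicates 1 and 3. In the 64 exons before them Col5a1 was at 1.9, 5.93 and 5.36 CPM in these libraries, where the whole of Col5a2 was at 2.37, 3.34 and 1.92 CPM. Outside its 3′ end Col5a1 was thus below Col5a2 in Asxl2-/- replicate 2 and above it in control replicates 1 and 3. These levels are not scaled for length, 5527 bases for the 64 exons and 6615 for Col5a2. The first 27 exons held 19, 27 and 12 counts, and exons 28 to 64 held 82, 282 and 242, that is 1.54 CPM against 5.41 and 5.10 CPM. The lower level in Asxl2-/- replicate 2 was therefore found in the last exons and in exons 28 to 64, while hardly any RNA was counted at the 5′ end in these libraries.

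**Figure D2:**
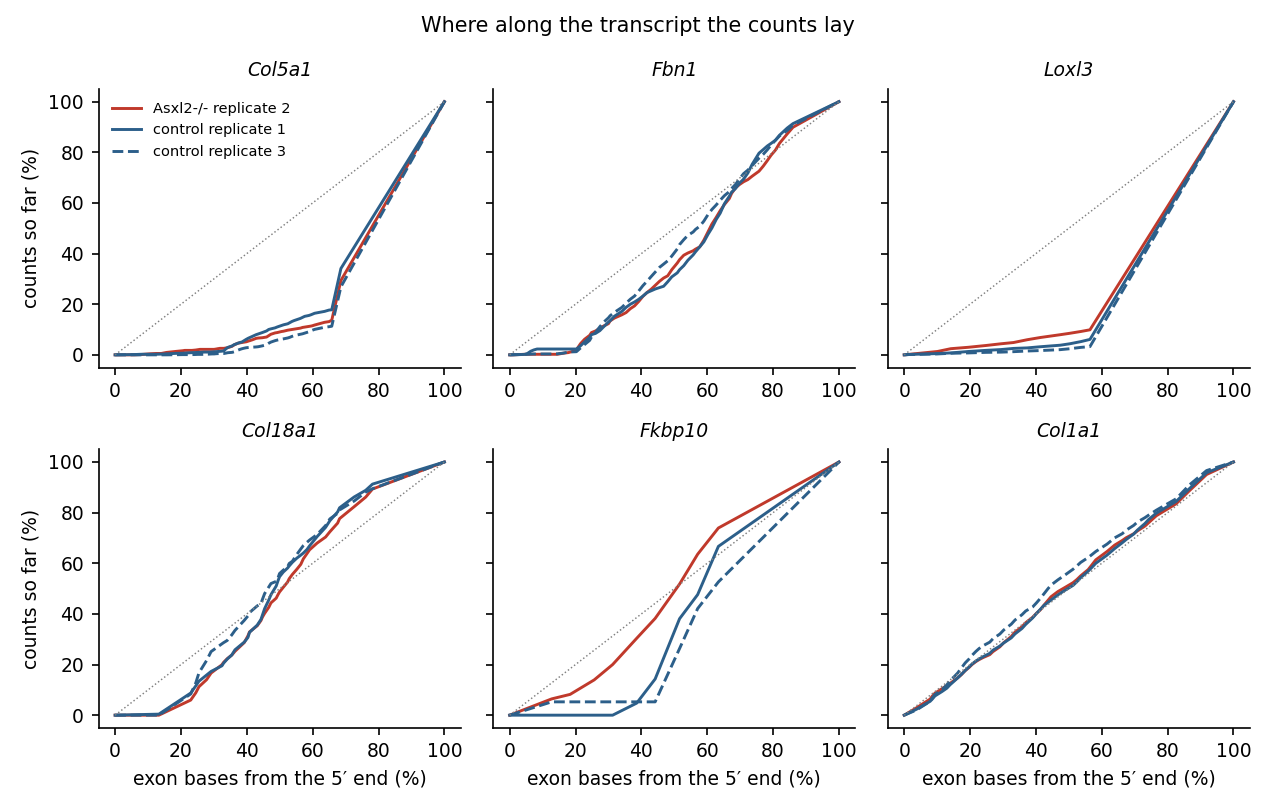
Share of a gene's counts reached (%, vertical) against share of its exon bases from the 5′ end (%, horizontal) in the 3 exon-count libraries, for Col5a1, Fbn1, Loxl3, Col18a1, Fkbp10 and Col1a1, with a dotted line for even coverage. Col1a1 runs along the dotted line, Col5a1 and Loxl3 gain most counts in their last exons, and in Fkbp10 the control curves have reached 14.3% and 5.26% at the end of exon 6, where that of Asxl2-/- replicate 2 has reached 38.2%.

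Type I collagen and Sparc (osteonectin, a collagen-binding protein of bone) were the most abundant secreted members per kilobase by the mean over all 6 libraries. The ranking did not hold in every library. In control replicate 2 Col5a1 was at 45.7 CPM on 8402 bases. There Col1a1 was at 14.2 CPM on 4698 bases, Col1a2 at 18.4 CPM on 5143 and Sparc at 5.28 CPM on 2641. In Asxl2-/- replicate 2 Sparc, at 13.5 CPM, was below Col4a1 (47.8 CPM on 6615 bases) and Col4a2 (44.5 CPM on 6426) per kilobase too. Type I collagen and Sparc varied widely within each group. Col1a1 was at 58.2 to 130 CPM in the Asxl2-/- libraries and at 14.2 to 83.7 CPM in the controls. After the fitted effect of the kind of file was removed from log2 CPM, its SD was 0.949 among Asxl2-/- and 0.908 among control libraries. Col1a1 had 3669 and 1859 counts against 410 in gene-count files, and 3099 against 4364 and 2243 in the exon-count files. Col1a2 had 4316 and 1967 against 531, and 3293 against 4783 and 2607. Sparc had 1908 and 815 against 152, and 721 against 1822 and 816. In all 3 the Asxl2-/- libraries were above the control in the gene-count files, whereas among exon-count files Asxl2-/- replicate 2 lay between the controls for Col1a1 and Col1a2 and below both for Sparc. Within the gene-count files the log2 fold changes were 2.69, 2.48 and 3.05, and within the exon-count files -0.11, -0.20 and -0.85, which have no test. In the fit over all 6 libraries they were 1.26 (SE 0.818), 1.14 (SE 0.802) and 1.04 (SE 1.22), with edgeR adjusted p of 0.351, 0.387 and 0.613. Without control replicate 2 they were -0.17, -0.25 and -0.95, and without Asxl2-/- replicate 2 they were 2.78, 2.59 and 3.19 with edgeR adjusted p of 0.0386, 0.0481 and 0.0486, so either library decides the direction or the call.

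**Figure D3:**
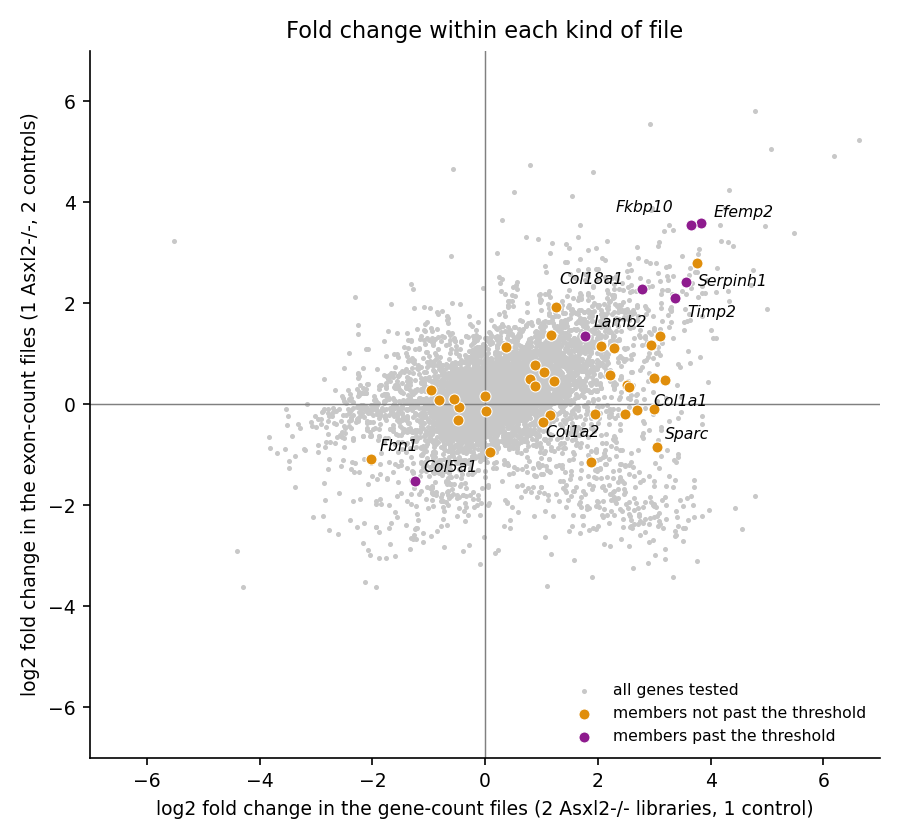
Log2 fold change of each gene in the gene-count files (horizontal) against that in the exon-count files (vertical), with grey points for all genes tested, orange for members not past the threshold and purple for members past it, over axes that reach 7 in either direction and leave out 4 genes. The 7 members past the threshold have 1 sign in both kinds of file, while Col1a1, Col1a2 and Sparc lie right of 0 and below it.

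Over the 43 members tested, 13 had opposite signs in the kinds of file, beside 31.9% of all genes tested. The groups did not overlap within either kind of file in 22 members with Asxl2-/- above and 3 with Asxl2-/- below, beside 25.4% and 23.3% of all genes. The 7 called members are among those 25. The fold change was positive in 34 of 43 members and in 50.1% of all genes. The median log2 fold change of the members was 1.14 (1.37 for the 26 secreted proteins tested), with 1.77 in the gene-count files, as against 0.47 in the other kind. A gene can pass the filter through 1 group alone, so these counts describe the members that passed.

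The order of libraries seen for Col1a1 (Asxl2-/- replicate 1, then 3, then control replicate 2, and control replicate 1, then Asxl2-/- replicate 2, then control replicate 3) was also that of Col1a2, Col5a2, Postn, Lamb1 and Mmp2. With Col1a1, which has it by definition, these were 6 of 43 members, beside 4.09% of all genes tested. Lamb1, on 5 to 17 counts, and Postn, on 8 to 37, were scarce. None of the called members had this order. Of 10 tested markers of marrow stroma and bone, 7 had it, and Ibsp, Tagln and Alpl did not. Ibsp (bone sialoprotein) had 46 and 26 counts against 7, and 22 against 59 and 33, and Pdgfra, a receptor of stromal cells, had 20 and 17 against 1, and 18 against 30 and 8. Lepr, a marker of reticular stroma, had 17 and 11 against 2, and 11 against 28 and 3, and Twist2 was at 0 in all 6 libraries. These markers, and those in the plot beside type I collagen, were picked after their values were seen. The 16 markers summed to 78.4 to 130 CPM in the Asxl2-/- libraries and 57.1 to 83.8 CPM in controls, most of it from Runx2 and Pdgfrb. The other 14 summed to 12.9 to 19.9 CPM against 5.36 to 8.85 CPM, a split made after the values were seen. Of these sums, Alpl alone gave 6.84 to 7.70 CPM against 1.75 to 1.91 CPM, so they do not show the other markers higher as a group. Tagln (transgelin) had 70 and 73 counts against 63, and 88 against 81 and 63. Of the 10 tested, only Alpl (alkaline phosphatase) was called, with 197 and 194 counts against 55, and 410 against 91 and 87 (log2 fold change 1.98, SE 0.183, adjusted p = 0.0151 by edgeR). The part of such cells in the matrix values was not tested.

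**Figure D4:**
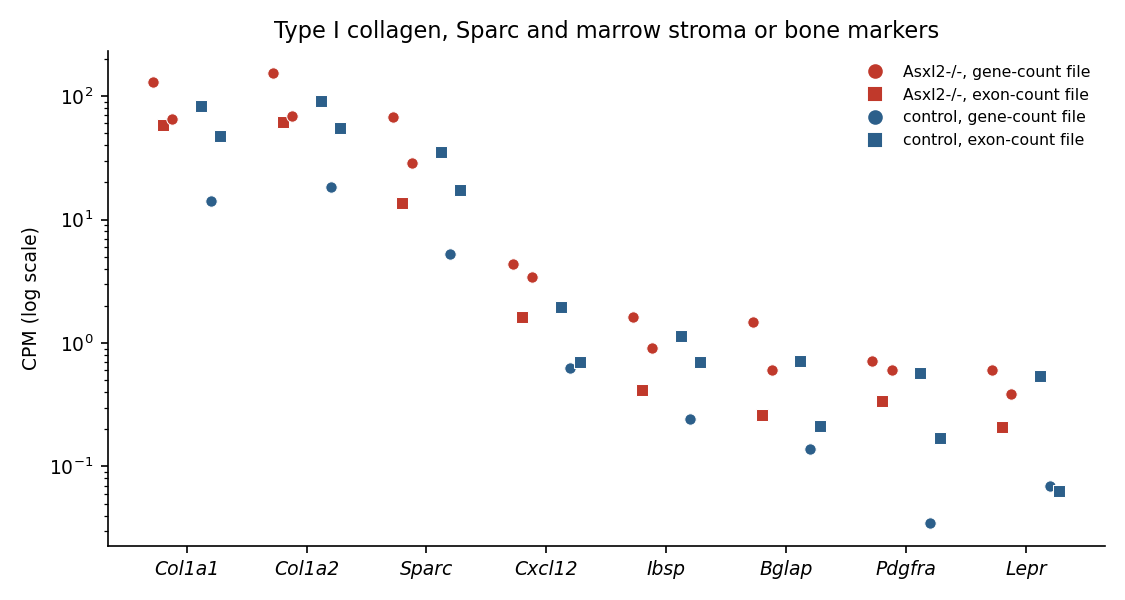
Level of Col1a1, Col1a2 and Sparc and of 5 marrow stroma or bone markers (Cxcl12, Ibsp, Bglap, Pdgfra, Lepr) in each library, as CPM on a log axis, coloured and shaped by group and kind of file. Control replicate 2 (blue circle) is lowest in the collagens and Sparc, and Asxl2-/- replicate 1 is highest in all 8 genes.

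Other marker lists gave the following levels. Over all genes tested, edgeR called 2.04% raised and 0.304% lowered, limma-voom 2.64% and 0.396%, and DESeq2 8.3% and 7.98%. At an unadjusted p under 0.05 by edgeR, 2126 of the 14145 genes were higher and 1786 lower. By edgeR, megakaryocyte genes were called raised in 5 of 9 (5 by limma-voom, 9 by DESeq2), beside 2.04% of all genes tested, among them Vwf (von Willebrand factor, log2 fold change 2.17, adjusted p = 0.019 by edgeR), Ppbp (platelet basic protein, 2.72, 0.0228) and Gp5 (a platelet surface glycoprotein, 0.72, 0.0281), and all 9 were higher without overlap in both kinds of file, as were 25.4% of all genes tested. Their sum was 417 and 350 CPM against 175 CPM in the gene-count files and, among exon-count files, 880 CPM against 384 and 246 CPM. The secreted matrix members summed to 579 and 348 CPM against 151 CPM in the gene-count files. Among exon-count files their sum was 356 CPM in Asxl2-/- replicate 2, between the 362 and 257 CPM of control replicates 1 and 3. Endothelial markers gave 0 calls of 9 by edgeR (4 with an unadjusted p under 0.05, 2 by DESeq2, 0 by limma-voom) and summed to 143 to 193 CPM against 115 to 144 CPM. Macrophage markers gave 0 calls of 7 by edgeR (1 with an unadjusted p under 0.05, 1 by DESeq2, 0 by limma-voom), with 27.8 to 60.8 CPM against 35.1 to 109 CPM. The 7 LSK and blood markers gave 0 calls by edgeR, DESeq2 or limma-voom (0 with an unadjusted p under 0.05 by edgeR), and at 1780 to 2280 CPM against 1730 to 2090 CPM they stood well above the lists of other cell types. Whether any of these cell types contributed to the matrix values was not tested.

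Matricellular and proteoglycan members gave 0 calls of 5 by edgeR, with 1 at an unadjusted p under 0.05, 0 by limma-voom and 1 by DESeq2. Of all genes tested, edgeR called 2.34%, limma-voom 3.04% and DESeq2 16.3%. At an unadjusted p under 0.05 by edgeR, 2126 of the 14145 genes were higher and 1786 lower. Thbs1, the member DESeq2 called (thrombospondin-1, also a platelet protein), was at 6.20 to 11.6 CPM against 2.11 to 4.28 CPM (log2 fold change 1.58, SE 0.341, adjusted p = 0.0679 by edgeR). Postn (periostin), with 8 to 37 counts, had 0.31. Dcn (decorin) and Lum (lumican), which coat collagen fibrils, had log2 fold changes of 1.83 and 1.51 on 4 to 93 counts, with edgeR adjusted p of 0.285 and 0.231. Col3a1, on 2 to 48 counts, had 1.73 (adjusted p = 0.211 by edgeR), and the collagen VI chains Col6a1, Col6a2 and Col6a3, on 1 to 67 counts, had 1.39, 1.33 and 0.09 with SE of 1.21, 0.767 and 1.36. The SE of these scarce RNAs, from 0.731 to 1.36, were well above the 0.273 of Lamb2. The SE did not follow scarcity alone, since Sparc, on 152 to 1908 counts, had 1.22, and Nid1, on 12 to 56 counts, had 0.359.

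Among proteases and inhibitors, Timp2, which inhibits matrix metalloproteinases and helps Mmp14 to activate Mmp2, was raised. It was counted 1249 and 1178 times against 119 in the gene-count files and, among exon-count files, 1520 times against 456 and 237. Levels were 28.6 to 44.3 CPM against 4.13 to 8.75 CPM (log2 fold change 2.67, SE 0.372, adjusted p = 0.0318 by edgeR). Timp3, the inhibitor that binds to the matrix, was at 7.65 to 13 CPM against 2.51 to 5.16 CPM but missed the threshold (1.26, SE 0.348, adjusted p = 0.097 by edgeR). The membrane protease Mmp14 (-0.36, SE 0.458) and the gelatinase Mmp2 (0.74, SE 0.789) overlapped between groups.

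**Figure D5:**
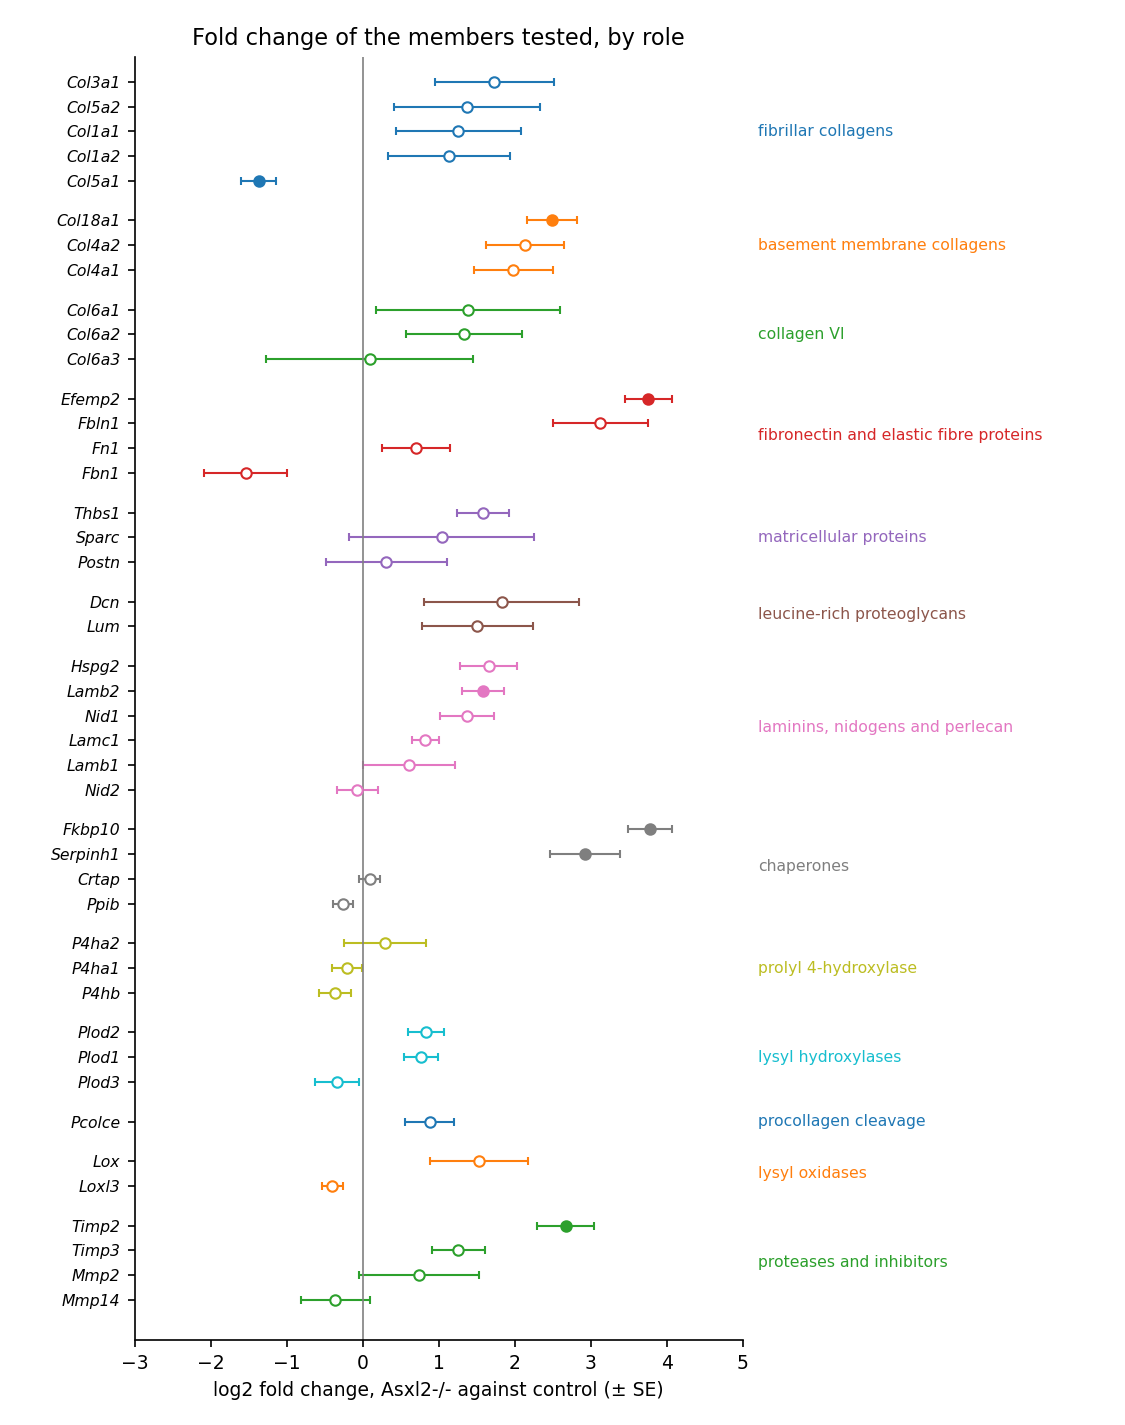
Log2 fold change of the 43 members tested, Asxl2-/- against control, with bars of 1 SE, grouped and coloured by role, filled points being those with an edgeR adjusted p under 0.05. Fkbp10 and Efemp2 lie farthest right, at 3.78 and 3.76, and Fbn1 and Col5a1 farthest left, at -1.54 and -1.37.

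A further 38 genes of collagen folding, cleavage and matrix adhesion were read off the same fit. Of the 32 tested, 5 were raised and 0 lowered by edgeR, beside 2.04% and 0.304% of all genes tested. At an unadjusted p under 0.05 by edgeR, 13 were higher and 3 lower, beside 2126 and 1786 of the 14145 genes tested. DESeq2 called 11 raised and 2 lowered, beside 8.3% and 7.98% of all genes. With limma-voom 7 were raised and 0 lowered, beside 2.64% and 0.396% of all genes. Leprel4 (P3h4) had 121 and 83 counts against 4, and 253 against 33 and 5 (log2 fold change 4.01, SE 0.682, adjusted p = 0.0465 by edgeR). It encodes a partner of Plod1 and prolyl 3-hydroxylase 3, and lies head to head with Fkbp10 on chromosome 11, with 874 bases between the annotated starts. Leprel2 (P3h3), the enzyme of that complex, was raised too (2.10, SE 0.297, adjusted p = 0.0318 by edgeR), and Lepre1 (P3h1), the enzyme of the complex with Crtap and Ppib, was not called (0.29, SE 0.133, adjusted p = 0.218 by edgeR). Fkbp9, a relative of Fkbp10 in the endoplasmic reticulum (1.54, adjusted p = 0.0196 by edgeR), and Tgm2, the transglutaminase that crosslinks matrix proteins (1.27, adjusted p = 0.0258 by edgeR), completed the 4 raised of 15 in folding and cleavage. Leprel4 is named beyond the rule for this list, after its values were seen. Of 17 tested receptors of matrix, the integrin subunit Itga6, part of laminin receptors, was raised (0.76, SE 0.107, adjusted p = 0.0318 by edgeR).

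Calls rested on few degrees of freedom. Without control replicate 3 no member was past the threshold (0 of 43 by edgeR, with 17 at an unadjusted p under 0.05, beside 0.0636% of all genes called), and without Asxl2-/- replicate 1 only Fkbp10 was (adjusted p = 0.0451 by edgeR), beside 0.11% of all genes. Fkbp10 held in 5 of the 6 fits that leave out a library, failing without control replicate 3 (adjusted p = 0.0994 by edgeR). Efemp2 held in 4 and failed without Asxl2-/- replicate 1 (0.0596) and control replicate 3 (0.0954). Timp2 held in 3 and failed without Asxl2-/- replicates 1 (0.0991) and 3 (0.0716) and control replicate 3 (0.14), and Serpinh1 and Col18a1 failed in those 3 fits and without control replicate 2, with edgeR adjusted p from 0.0611 to 0.159. Col5a1 held without Asxl2-/- replicate 3 (0.0492) and control replicate 1 (0.0413), and Lamb2 without control replicate 1 (0.0393), and neither held in the other fits, at 0.0657 to 0.139 for Col5a1 and 0.0695 to 0.192 for Lamb2. The fold changes of these 7 members kept their sign in all 6 fits, with 3.67 to 3.90 for Fkbp10, 3.60 to 4.05 for Efemp2, 2.34 to 3.65 for Serpinh1, 2.05 to 3.38 for Timp2, 2.21 to 2.82 for Col18a1, 1.37 to 1.83 for Lamb2 and -1.57 to -1.21 for Col5a1. Lamb2 was also lost with median-ratio scaling (adjusted p = 0.0503 by edgeR) and without the covariate for the kind of file (0.105), and in the replicate block without that covariate (0.155).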

How the data were processed

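RNA was sequenced from sorted LSK cells of 3 Asxl2-/- and 3 control libraries, poly(A)-selected and unstranded. As deposited, the values were raw counts on RefSeq transcripts of mm10, and the submitters' processing notes name STAR, featureCounts and DESeq2 without versions. Exon counts were summed. Each symbol was represented by its longest transcript. Groups and replicate numbers came from the library titles. The study's methods call the 3 libraries of a group biological replicates and do not say whether each came from separate mice, so p-values measure the spread between these libraries.

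Counts were tested with edgeR 4.0.16 in R 4.3.3 (glmQLFit, glmQLFTest, TMM, filterByExpr, file kind plus group, 3 residual degrees of freedom), two-sided, with Benjamini-Hochberg adjustment over all genes tested and a threshold of 0.05. Scripts were tested on simulated data. Values within 1 kind of file are differences of log2 CPM with a prior count of 2 and have no test. Intervals (95%, Wilson, scipy 1.17.1) and the floor of 3 counts cover counting error only.

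The members and lists were chosen with earlier results of these data known. Counts per library were given for called members, Fkbp10 and Efemp2, the 3 secreted and 3 collagen-processing members with the highest CPM per kilobase, and the members with the largest positive and negative fold change. Further and marker genes past the threshold were named, at most 3 per list by smallest p. Alternatives were median-ratio scaling, DESeq2 1.42.0, limma-voom (limma 3.58.1), a minimum of 10 counts in every library, no filter, no term for file kind, a replicate block with and without file kind, the transcript with the most counts, the kinds of file taken apart, and each library left out.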

Additional observations from a re-analysis of the deposited data

How the results depend on the processing

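Members past the threshold numbered 7 in the fit reported, 6 to 8 with median-ratio scaling, limma-voom, a minimum of 10 counts in every library, no filter, the file kind left out of the design or the transcript with the most counts, and 16 with DESeq2 (15 raised, 1 lowered), where all genes rose from 331 to 2303 (1174 raised, 1129 lowered), secreted members from 4 to 10, processing members from 2 to 4 and the further genes from 5 to 13. With the minimum of 10 counts, processing members fell to 1, because Fkbp10 was not tested. Leaving out 1 library at a time gave 9 to 1312 genes, 0 to 13 members, 0 to 9 secreted members, 0 to 3 processing members and 0 to 9 further genes. Without control replicate 2 the gene-count files hold no control, and without Asxl2-/- replicate 2 the exon-count files hold no Asxl2-/- library, so each of these fits rests on 1 kind of file. Without control replicate 2 the fold changes of Col1a1 (-0.17), Col1a2 (-0.25), Sparc (-0.95), P4hb (0.08) and Plod3 (0.27) turned sign, none past the threshold, and the range over the fits that leave out a library was -0.17 to 2.78, -0.25 to 2.59, -0.95 to 3.19, -0.82 to 0.08 and -0.95 to 0.27 for these genes. Among the 7 called members no sign turned under any alternative.

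Whether same-numbered libraries pair was not settled, and the labels give them only a number. The correlation of their deviations from the group means was 0.294, -0.008 and -0.003 for numbers 1, 2 and 3, beside a mean of -0.05 for other pairs. With the kind of file removed it was 0.635 and 0.388 for numbers 1 and 3, each library correlating best with its own number, where the removal alone gives unrelated values 0.143. Number 2 is fixed at 1 by the removal and tells nothing. A replicate block with the file kind leaves 1 residual degree of freedom and gave 5189 genes (2772 raised, 2417 lowered), 36 members (29 raised, 7 lowered), 22 secreted, 10 processing and 20 further genes. The block without the file kind gave 377 genes, 10 members without Lamb2 (adjusted p = 0.155 by edgeR), 7 secreted (5 raised, 2 lowered), 2 processing and 4 further genes. The cause of these differences was not tested. Depth limited the scarce members, and 3 were not tested.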
